A study of Mus musculus with 6 samples.

Results

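The ERK feedback genes described here are 10 mouse genes, Dusp4, Dusp5, Dusp6, Spry1, Spry2, Spry4, Spred1, Spred2, Etv4 and Etv5. They encode phosphatases and adaptors that restrain ERK signalling and transcription factors that are made in response to it. The genes were chosen by symbol, matched to the NCBI gene identifiers of 6 gene tables, and are 10 of the 17254 genes seen in any table. All 10 had a mean FPKM of at least 1 over the 6 libraries and so are among the 11717 genes tested.

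RNA was sequenced from cultures of mouse neural stem and progenitor cells (NSPCs) kept for 48 h without treatment (control, 2 libraries), with paraquat (PQ, 2 libraries) or with N-acetylcysteine (NAC, 2 libraries). PQ passes electrons to oxygen inside the cell, which makes superoxide, and NAC is a thiol antioxidant. The study's methods describe a neonate-derived immortalised Ink/Arf-/- culture, a mixture of neural stem cells, neuronal precursors and oligodendroglial progenitors, so the deletion is shared by control, PQ and NAC cells. The labels of control 1 and PQ 1 write the genotype as Ink/Ark knockout and the strain as C57BL/6, and those of the other 4 libraries give neither. The cells grew in N2 medium with EGF and bFGF, for which the labels of control 1 and PQ 1 give 20 ng/ml. The dose of PQ was 5 µM in the label of PQ 1, and the methods of the study give 5 mM for NAC.

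EGF and FGF bind receptor tyrosine kinases that activate RAS and, through the RAF and MEK kinases, ERK, a route that keeps neural progenitors dividing in culture. Active ERK enters the nucleus and raises transcription of its own inhibitors, among them DUSP phosphatases that remove phosphate from ERK and Sprouty proteins that act between the receptor and RAF. The ETS factors Etv4 and Etv5 are transcribed in response to the same signal, and the levels of these mRNAs are widely read as the output of FGF and ERK signalling.

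The expected counts, an estimate of the reads from each gene, summed to 9849392 in control 1 and 10040827 in control 2. The sums were 10388731 in PQ 1, 9680436 in PQ 2, 10698241 in NAC 1 and 9907726 in NAC 2. At this depth the expected counts of the 10 genes ran from 81 for Dusp5 in control 2 to 10100 for Etv5 in NAC 1. Levels are given as FPKM, a read density scaled by transcript length and library total, which allows genes of unequal length to be compared. By their labels, RNA of control 1 and PQ 1 was column-extracted, made into Illumina libraries and aligned to mm9, whereas control 2, PQ 2 and both NAC libraries are labelled TRIZOL, BGISEQ-500 and mm10. PQ and control thus each hold 1 library of each labelled protocol, and NAC holds libraries of the second alone. Across the genes tested, which are not independent replicates, Pearson's r of log2(FPKM + 1) was 0.988 for the control libraries, 0.990 for the PQ libraries and 0.991 for the NAC libraries. It ran from 0.965 to 0.979 between libraries of different groups.

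In the control libraries the order of mean FPKM was Etv5, Spred1, Dusp6, Spred2, Dusp4, Etv4, Spry1, Spry2, Spry4 and Dusp5. Dusp4 and Etv4 were the 1 pair of neighbours in this order whose control libraries overlapped. Only 2.65% of the genes tested had a higher control mean than Etv5, whereas 65.2% lay above Dusp5. In the PQ libraries Dusp4 held place 3 and Dusp6 place 4, with overlapping libraries, and the libraries of Spred2 overlapped those of Etv4, and those of Etv4 those of Spry1. In the NAC libraries Dusp6 held place 2 and Spry1 place 4, which in control were those of Spred1 and Spred2. Dusp4 held place 7 in NAC, where its libraries overlapped those of Spry2 below it.

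**Figure D1:**
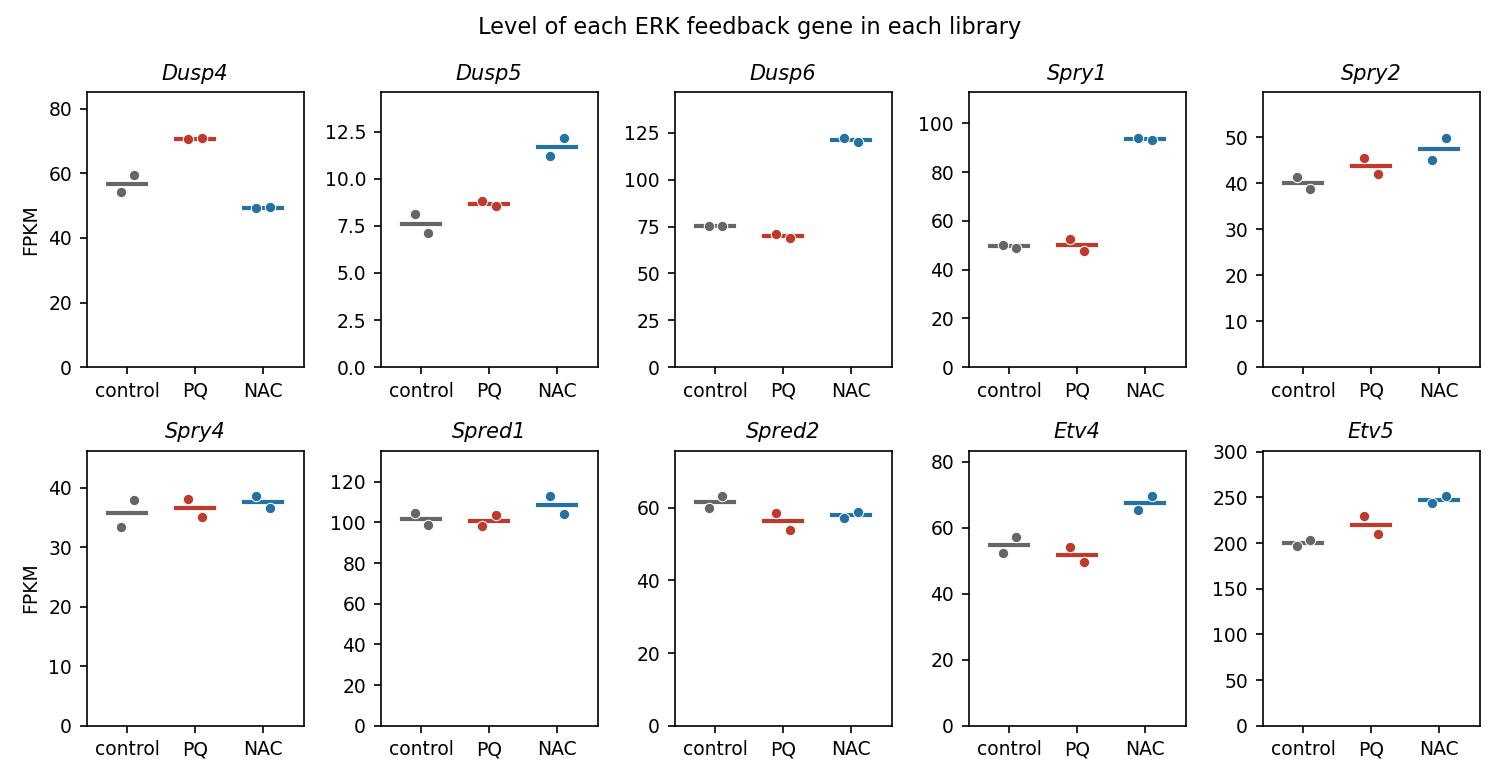
FPKM of the 10 ERK feedback genes in each of the 6 libraries (points), with the mean of each group of 2 libraries (horizontal lines); the vertical axis of each panel is FPKM. Dusp6 and Spry1 sit higher in both NAC libraries than in the other 4, and Dusp4 sits highest in the PQ libraries.

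Against control, edgeR's quasi-likelihood test called 4 of the 10 genes higher in NAC (Spry1, Dusp6, Dusp5 and Etv5), where 9.01% of all genes tested were called higher. A call is a Benjamini-Hochberg adjusted p under 0.05 over the 11717 genes tested. None of the 10 was called lower in NAC by edgeR, beside 9.64% of all genes; 1 was lower at an unadjusted p under 0.05, and DESeq2 and limma called 0. Against control, edgeR called 1 of the 10 higher in PQ, Dusp4, beside 9.76% of all genes. It called 0 lower in PQ, beside 9.45% of all genes; 0 were lower at an unadjusted p under 0.05, and DESeq2 and limma called 0. In PQ against NAC, 1 of the 10 was called higher (Dusp4), beside 16.0% of all genes, and 3 were called lower (Spry1, Dusp6 and Etv4), beside 15.7%. The share of the 10 called higher in PQ against control was near that of all genes called higher. The number of these genes called higher in NAC was 2 without control 2, without NAC 1 or without NAC 2. The number called higher in PQ was 0 without control 1, without PQ 1 or without PQ 2.

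The median log2 fold change of the 10 genes was -0.001 in PQ against control, equal to the median of -0.001 over all genes tested. Their median in NAC against control was 0.22, beside -0.002 over all genes. For PQ against NAC the median of the 10 genes was -0.13, beside 0.0 over all genes. The PQ and NAC comparisons share the control libraries, and the p-values measure the spread between these samples. The study's reporting summary gives 2 replications of the RNA sequencing, and neither it nor the labels say whether the libraries of a group came from separate cultures. In bulk RNA from a mixed population, fewer cells of a type and less RNA per cell cannot be told apart.

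**Figure D2:**
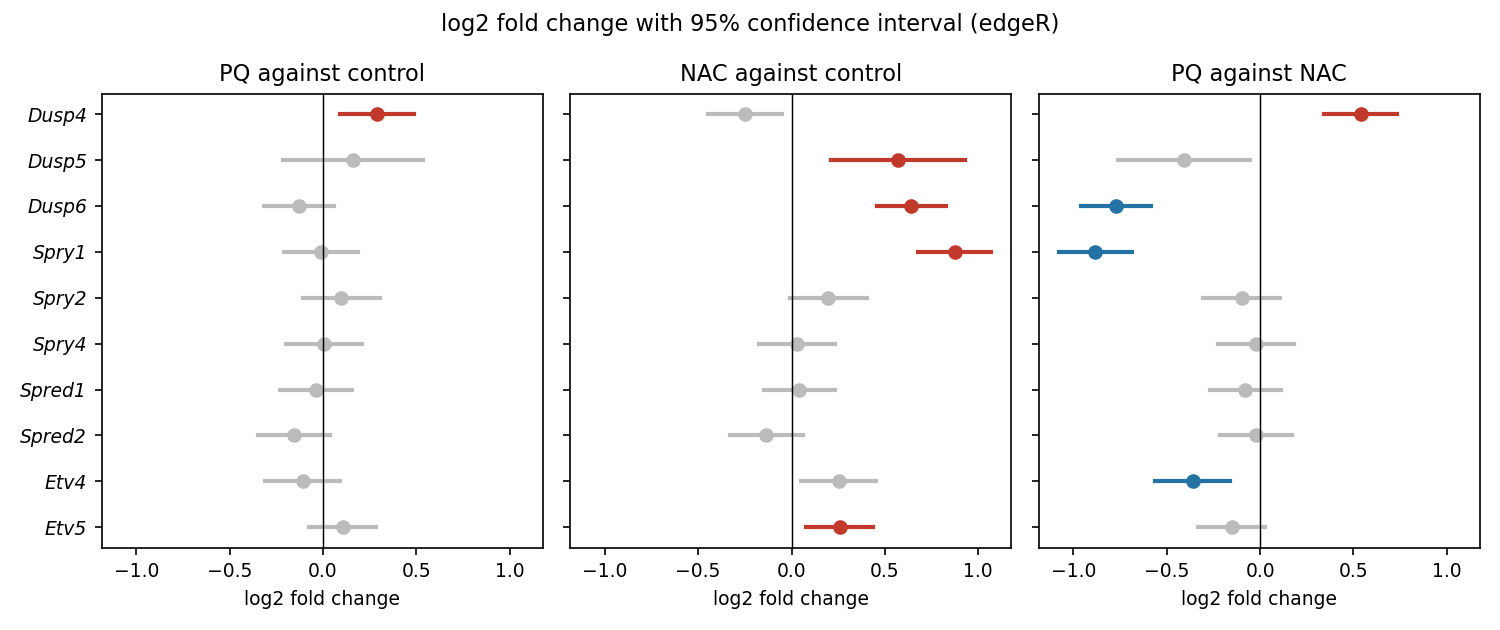
Log2 fold change of each of the 10 genes in PQ against control, NAC against control and PQ against NAC (horizontal axis, log2 units), with 95% confidence intervals from edgeR as lines; red marks genes called higher, blue those called lower and grey those not called. Spry1 and Dusp6 lie farthest to the right in NAC against control, at 0.87 and 0.64.

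The dual-specificity phosphatase Dusp6 (NCBI gene 67603) resides in the cytoplasm and acts with high selectivity on ERK. Its FPKM was 75.2 in control 1 and 75.4 in control 2, 71.3 in PQ 1 and 68.9 in PQ 2, and 122.4 in NAC 1 and 120.2 in NAC 2. Both NAC libraries stood far above the other 4, and the PQ libraries lay just under the control libraries without overlap. The group means were 75.3 ± 0.148 (SD, n = 2) in control, 70.1 ± 1.64 in PQ and 121.3 ± 1.51 in NAC. Dusp6 was 1.56-fold higher in NAC than in control (log2 0.64, SE 0.09, 95% interval 0.46 to 0.83, adjusted p 3.7e-05, edgeR), with both NAC libraries above both control libraries. Within the labelled TRIZOL protocol alone, the NAC libraries lay 0.65 above control 2 on the log2 scale. The PQ difference of -0.13 was not called (95% interval -0.32 to 0.06, adjusted p 0.35, edgeR) and was -0.12 between the column-extracted libraries and -0.13 between the TRIZOL libraries. In PQ against NAC, Dusp6 was 1.71-fold lower (log2 -0.77, adjusted p 2.8e-06, edgeR).

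Dusp4 (NCBI gene 319520) encodes a nuclear phosphatase that acts on ERK and also on other MAP kinases. Its FPKM was 54.2 in control 1 and 59.4 in control 2, 70.5 in PQ 1 and 70.9 in PQ 2, and 49.2 in NAC 1 and 49.5 in NAC 2. The PQ libraries were the highest and the NAC libraries the lowest, and no groups overlapped. How many of all genes tested have groups that stand apart was not counted. This order, like the lack of overlap given for other genes, is thus a description only. Dusp4 was 1.22-fold higher in PQ than in control (log2 0.29, SE 0.09, 95% interval 0.09 to 0.49, adjusted p 0.036, edgeR), with both PQ libraries above both control libraries. That call was lost without control 1 (log2 0.23), without PQ 1 (0.31) and without PQ 2 (0.27), with the labelled protocol as a term (0.29) and with the TRIZOL libraries alone (0.25), where PQ and control have 1 library each and the spread comes from the 2 NAC libraries, and over the alternatives its adjusted p ran from 0.027 to 0.32. The PQ difference was 0.33 between the column-extracted libraries and 0.25 between the TRIZOL libraries, on the log2 scale. Its log2 difference of -0.25 in NAC against control was not called (95% interval -0.45 to -0.05, adjusted p 0.074, edgeR). The direct comparison of PQ with NAC gave the larger difference, 1.45-fold higher in PQ (log2 0.54, SE 0.09, adjusted p 2.3e-04, edgeR).

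Dusp5 (NCBI gene 240672) encodes a nuclear phosphatase that is specific for ERK. Its FPKM was 8.13 in control 1 and 7.10 in control 2, 8.81 in PQ 1 and 8.54 in PQ 2, and 11.2 in NAC 1 and 12.2 in NAC 2. Control was lowest, PQ was in between and NAC was highest, with no overlap between groups. These values rest on the smallest counts of the 10 genes, from 81 in control 2 to 137 in NAC 2. Dusp5 was 1.48-fold higher in NAC than in control (log2 0.57, SE 0.17, 95% interval 0.21 to 0.93, adjusted p 0.025, edgeR), with both NAC libraries above both control libraries. Without control 2 it was 0.47, without NAC 1 it was 0.62 and without NAC 2 it was 0.52, none of them called, and the difference was not called by DESeq2 either (0.57). The PQ difference from control, 0.16, was not called (adjusted p 0.58, edgeR), nor was that from NAC, -0.41 (adjusted p 0.073, edgeR), which limma on log2(FPKM + 1) called at -0.39. When 1 library was left out, the PQ difference from control ran from 0.06 to 0.27.

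Sprouty proteins are adaptors that dampen signalling from receptor tyrosine kinases to RAS and RAF, and 3 of the mouse genes are among the 10. The FPKM of Spry1 (NCBI gene 24063) was 50.3 in control 1 and 48.8 in control 2, 52.7 in PQ 1 and 47.6 in PQ 2, and 94.0 in NAC 1 and 93.3 in NAC 2. The NAC libraries stood apart and above, while the control libraries lay inside the range of the PQ libraries. Spry1 was 1.83-fold higher in NAC than in control (log2 0.87, SE 0.09, 95% interval 0.68 to 1.07, adjusted p 2.3e-06, edgeR), with both NAC libraries above both control libraries. Ranked from the highest log2 fold change in NAC against control, it held place 243 of 11717 genes. Within the labelled TRIZOL protocol, the NAC libraries exceeded control 2 by 0.90 on the log2 scale. The PQ difference was -0.01 (95% interval -0.21 to 0.19, adjusted p 0.97, edgeR), with 0.02 between the column-extracted libraries and -0.04 between the TRIZOL libraries. In PQ against NAC, Spry1 was 1.84-fold lower (log2 -0.88, adjusted p 1.1e-06, edgeR).

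The FPKM of Spry2 (NCBI gene 24064) was 41.4 in control 1 and 38.8 in control 2, 45.4 in PQ 1 and 42.1 in PQ 2, and 45.2 in NAC 1 and 49.9 in NAC 2. The control libraries were the lowest, with PQ and NAC overlapping each other above them. Neither difference from control was called for Spry2, at a log2 of 0.10 in PQ (adjusted p 0.54, edgeR) and 0.20 in NAC (adjusted p 0.18, edgeR). When 1 library was left out, these values ran from 0.05 to 0.15 in PQ and from 0.13 to 0.26 in NAC. Spry4 (NCBI gene 24066) had an FPKM of 33.4 in control 1 and 38.0 in control 2, 38.0 in PQ 1 and 35.0 in PQ 2, and 38.6 in NAC 1 and 36.7 in NAC 2. All 3 groups overlapped for Spry4, which was not called in any comparison, with intervals of -0.20 to 0.21 in PQ and -0.17 to 0.23 in NAC against control on the log2 scale. Within the Sprouty family the call in NAC was thus made for Spry1 and not for Spry2 or Spry4, and the difference between family members was not tested.

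Spred1 and Spred2 encode relatives of the Sproutys that bring neurofibromin, a brake on RAS, to the membrane. The FPKM of Spred1 (NCBI gene 114715) was 104.6 in control 1 and 98.5 in control 2, 98.1 in PQ 1 and 103.6 in PQ 2, and 112.8 in NAC 1 and 104.0 in NAC 2. The control libraries of Spred1 overlapped those of both treatments. The FPKM of Spred2 (NCBI gene 114716) was 59.97 in control 1 and 63.1 in control 2, 58.6 in PQ 1 and 54.0 in PQ 2, and 57.1 in NAC 1 and 58.8 in NAC 2. For Spred2 both control libraries lay above the other 4, which overlapped. Neither Spred was called in any comparison. Against control, the 95% intervals of Spred1 were -0.23 to 0.15 in PQ and -0.15 to 0.23 in NAC, and those of Spred2 were -0.35 to 0.04 in PQ and -0.33 to 0.06 in NAC, on the log2 scale.

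Etv5 (NCBI gene 104156), an ETS transcription factor of the PEA3 family, had the highest FPKM of the 10 genes in each of the 6 libraries. It was 196.8 in control 1 and 203.8 in control 2, 229.7 in PQ 1 and 209.4 in PQ 2, and 243.9 in NAC 1 and 251.1 in NAC 2. Control was lowest and NAC highest, with PQ in between and no overlap. Etv5 was 1.197-fold higher in NAC than in control (log2 0.26, SE 0.09, 95% interval 0.08 to 0.44, adjusted p 0.042, edgeR), with both NAC libraries above both control libraries. This call was lost when any 1 of the 6 libraries was left out, control 1, control 2, PQ 1, PQ 2, NAC 1 or NAC 2, with log2 values of 0.24 to 0.28, and was made under 6 of 15 alternatives. It was also lost with the labelled protocol as a term (0.28) and with only the 4 control and NAC libraries (0.26). With the TRIZOL libraries alone, which hold 1 control library, the log2 value was 0.24. In PQ the log2 difference of 0.11 from control was not called (adjusted p 0.44, edgeR) and was 0.18 between the column-extracted libraries and 0.03 between the TRIZOL libraries.

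Etv4 (NCBI gene 18612), of the same family, had an FPKM of 52.4 in control 1 and 57.2 in control 2, 54.0 in PQ 1 and 49.5 in PQ 2, and 65.3 in NAC 1 and 69.5 in NAC 2. The NAC libraries were the highest, and PQ 1 lay between the control libraries. Etv4 was not called in NAC against control (log2 0.25, 95% interval 0.05 to 0.45, adjusted p 0.073, edgeR), although its log2 value was near that of Etv5. In PQ against NAC, Etv4 was 1.28-fold lower (log2 -0.36, SE 0.10, adjusted p 0.0072, edgeR), with both PQ libraries under both NAC libraries. That call was lost without PQ 2 (log2 -0.31) and without NAC 2 (-0.32).

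The ratio of Dusp6 to Dusp4 FPKM was chosen after the values were seen, as was that of Spry1 to Spry2, and both are given with no test. Dusp6:Dusp4 was 1.39 in control 1 and 1.27 in control 2, 1.01 in PQ 1 and 0.972 in PQ 2, and 2.48 in NAC 1 and 2.43 in NAC 2. The mRNA of the cytoplasmic phosphatase thus exceeded that of the nuclear one in control and more so in NAC, and they were near equal in PQ. Spry1:Spry2 was 1.21 in control 1 and 1.26 in control 2, 1.16 in PQ 1 and 1.13 in PQ 2, and 2.08 in NAC 1 and 1.87 in NAC 2. The 10 genes together summed to 676 FPKM in control 1 and 690.2 in control 2, 727 in PQ 1 and 689.6 in PQ 2, and 839.6 in NAC 1 and 845 in NAC 2. Etv5 made up 29.1% to 31.6% of that sum in the 6 libraries.

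**Figure D3:**
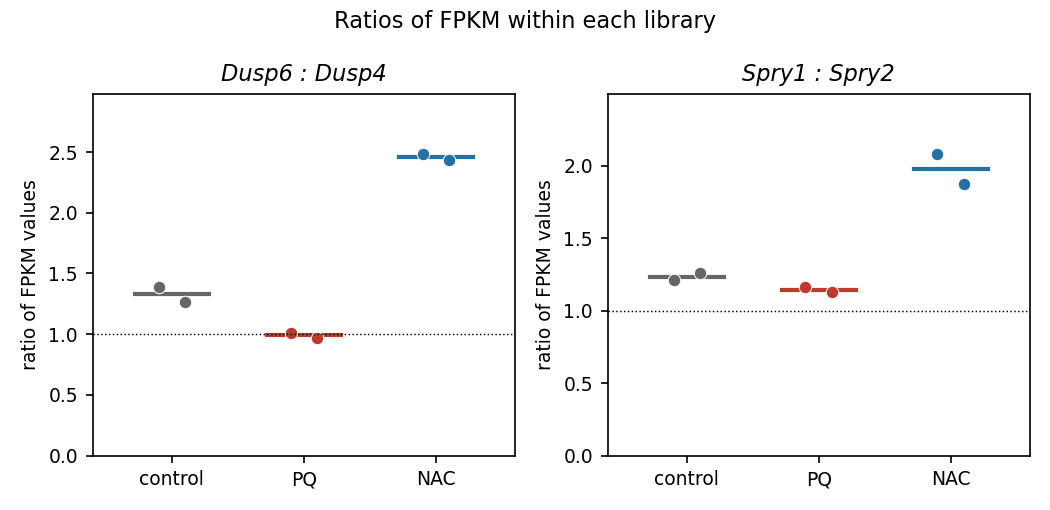
Ratio of FPKM between Dusp6 and Dusp4 and between Spry1 and Spry2 in each library (points), by group, with group means as horizontal lines and a dotted line at a ratio of 1. Both ratios are highest in the NAC libraries, and Dusp6:Dusp4 is lowest in the PQ libraries.

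Likeness between genes was measured as the root mean square difference of log2 CPM (counts scaled by library total and TMM factor), each gene centred on its mean over the 6 libraries. The member nearest to Dusp6 was Spry1, and the reverse, at 0.0997. Of the 11716 other genes tested, 57 (0.487%) were nearer to Dusp6 than Spry1 was, and 18 (0.154%) were nearer to Spry1 than Dusp6 was. The centred log2 values of Dusp6 were -0.16 and -0.18 in control, -0.29 and -0.31 in PQ, and 0.49 and 0.45 in NAC. Those of Spry1 were -0.26 and -0.32 in control, -0.24 and -0.36 in PQ, and 0.60 and 0.57 in NAC. Spry2 and Etv5 were nearest to each other at 0.0581, with 65 genes nearer to Spry2 and 95 nearer to Etv5, and Etv5 was also the nearest member to Dusp5 (542 genes nearer) and to Etv4 (626 nearer). Spry4 and Spred2 were nearest to each other at 0.0908, with 791 genes nearer to Spry4 and 814 nearer to Spred2. Spry4 was the nearest member to Spred1, to which 1458 genes were nearer. Dusp4 had no close member, since its nearest, Spry4, stood at 0.233 and 33.4% of the other genes were nearer. The 5 genes outside the 10 that were most like Dusp6 were Gatm (0.0464), Gpam (0.0498), Tsr2 (0.0502), Reep3 (0.0538) and Obi1 (0.0560).

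Promoters are shown for the genes called higher in NAC, because Dusp6 and Spry1 had like patterns over the libraries. RefSeq sequences on GRCm38.p6 were matched by symbol for 7 of the 10 genes, with 8 promoters since Etv5 has 2, and not for Dusp4, Etv4 and Spry4. Each window holds the 250 bases before the annotated start and was searched on both strands for an ETS motif (CCGGAA), an AP-1 motif (TGANTCA), a cyclic AMP response element (TGACGTCA), a forkhead motif (GTAAACA) and the CArG box, the site of serum response factor. None of these motifs contains another of them. Of 32851 promoters of that length, 12.03% held the ETS motif, 6.75% the AP-1 motif, 1.55% the cyclic AMP response element, 3.17% the forkhead motif and 1.47% a CArG box. Capitals below mark the matches.
Dusp6 promoter, chr10:99262981-99263230, plus strand: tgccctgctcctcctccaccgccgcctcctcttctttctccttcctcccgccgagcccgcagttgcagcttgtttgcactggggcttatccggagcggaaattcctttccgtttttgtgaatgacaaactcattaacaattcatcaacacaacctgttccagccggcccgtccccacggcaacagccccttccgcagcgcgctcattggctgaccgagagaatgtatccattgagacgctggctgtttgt
Spry1 promoter, chr3:37639697-37639946, plus strand: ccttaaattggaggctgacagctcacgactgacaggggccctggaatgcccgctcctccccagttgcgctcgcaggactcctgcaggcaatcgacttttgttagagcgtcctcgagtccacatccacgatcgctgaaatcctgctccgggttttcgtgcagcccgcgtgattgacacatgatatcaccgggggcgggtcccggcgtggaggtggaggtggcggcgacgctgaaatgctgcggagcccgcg
Dusp5 promoter, chr19:53528895-53529144, plus strand: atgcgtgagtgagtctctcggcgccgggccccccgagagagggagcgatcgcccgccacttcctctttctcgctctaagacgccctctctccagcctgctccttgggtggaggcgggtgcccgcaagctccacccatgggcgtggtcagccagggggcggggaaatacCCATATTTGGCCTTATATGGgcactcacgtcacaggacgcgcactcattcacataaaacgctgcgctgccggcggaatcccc
Etv5 promoter 1, chr16:22439571-22439820, minus strand: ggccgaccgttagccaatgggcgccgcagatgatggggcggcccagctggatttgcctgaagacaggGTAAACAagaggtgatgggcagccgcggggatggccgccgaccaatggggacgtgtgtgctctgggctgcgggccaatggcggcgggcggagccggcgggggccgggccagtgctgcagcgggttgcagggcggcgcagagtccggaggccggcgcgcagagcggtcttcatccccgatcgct
In the Dusp5 window, 2 CArG boxes stood end to end, from -82 to -73 and from -72 to -63 relative to the annotated start. The first Etv5 window held 1 forkhead motif from -183 to -177. The windows of Dusp6, Spry1, Spry2, Spred1 and Spred2 and the second window of Etv5 did not hold the letters of any of the 5 motifs. Such a match is a description of the letters, and no match says only that they are not in these bases.

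The markers of cell types were read in the same libraries, and their part in the levels of the 10 genes was not tested. Counts of called markers stand beside the shares of all genes called, 9.76% higher and 9.45% lower in PQ, and 9.01% and 9.64% in NAC. Of 9 neural progenitor markers, 8 were among the genes tested and Prom1 was under 1 FPKM in every library. Their summed FPKM was 3387 in control 1 and 3448 in control 2, 3712 in PQ 1 and 3768 in PQ 2, and 2668 in NAC 1 and 2588 in NAC 2, most of it from Vim (mean 2073). Against control, 1 of these markers was called higher and 3 lower in PQ, and 1 higher and 3 lower in NAC. The 5 astrocyte markers summed to 46.2 in control 1 and 51.2 in control 2, 49.5 in PQ 1 and 52.6 in PQ 2, and 106.2 in NAC 1 and 106.9 in NAC 2, with Aldoc the most abundant (mean 61.9). Their sum, most of it Aldoc, was highest in the NAC libraries. So were the sums for oligodendrocyte progenitors, neurons, microglia and dividing cells, so this was not particular to astrocyte markers. In NAC against control, 3 astrocyte markers were called higher (Gfap, Aqp4 and Aldoc). Aqp4 was under 1 FPKM in each control and PQ library and reached the filter on mean FPKM only through the NAC libraries, so its call follows in part from the filter. Aldh1l1 was called higher in PQ against control and against NAC, and its log2 difference of -0.49 in NAC against control was not called. The 7 markers of dividing cells summed to 683 in control 1 and 710.0 in control 2, 421.6 in PQ 1 and 457.7 in PQ 2, and 840.2 in NAC 1 and 783 in NAC 2, with Pcna the most abundant (mean 223). All 7 were called lower in PQ against control, while edgeR, DESeq2 and limma called 0 in NAC against control, where 2 were higher and 0 lower at an unadjusted p under 0.05.

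Oligodendrocyte progenitor markers summed to 651 and 752 in control, 767 and 665 in PQ, and 814 and 924 in NAC, mostly Olig1 (mean 429), while Sox10, Cspg4 and Gpr17 were under 1 FPKM in every library. For mature oligodendrocytes the sums were 56.0 and 62.8 in control, 65.8 and 67.0 in PQ, and 57.7 and 67.2 in NAC, mostly Cnp, with Mog and Mag in no table and Mbp under 1. Neuron markers summed to 38.4 and 36.2 in control, 33.9 and 35.0 in PQ, and 65.5 and 59.0 in NAC, mostly Map2, with Rbfox3 in no table and Dcx, Snap25 and Syt1 under 1. Tubb3 went the other way from Map2 in NAC, with 2.38 and 1.30 FPKM in control against 0.32 and 0.44 in NAC. It was also under control in PQ, at 0.72 and 0.47, and its mean was too low for it to be tested. The sums for microglia were 2.05 and 1.89 in control, 3.01 and 3.05 in PQ, and 4.50 and 3.48 in NAC, mostly P2ry12, with Aif1, Cx3cr1, Ptprc and Csf1r under 1. Endothelial markers summed to at most 0.58, with Cldn5 in no table, and those of fibroblasts or mural cells to at most 5.59, mostly Col3a1. In NAC against control, 2 oligodendrocyte progenitor markers and 1 marker each of neurons and microglia were called higher. In PQ against control, 1 fibroblast or mural marker was called lower.

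The counts of this list and of those below stand beside the shares of all genes tested. In PQ against control, 9.76% were called higher and 9.45% lower, and in NAC against control 9.01% and 9.64%. The route that feeds the 10 genes starts with growth factors, and of 11 ligands listed 9 were tested. In PQ against control, 4 ligands were called higher and 0 lower by edgeR, and 0 were lower by DESeq2, by limma or at an unadjusted p under 0.05. Areg, an EGF receptor ligand, had 43.0 and 34.4 FPKM in control, 87.3 and 99.7 in PQ, and 22.8 and 22.5 in NAC, highest in PQ and lowest in NAC like Dusp4. It was higher in PQ than in control (log2 1.25, adjusted p 1.4e-06, edgeR) and lower in NAC than in control (log2 -0.82, adjusted p 1.5e-04, edgeR). Ereg, of the same family, was higher in PQ (log2 0.82, adjusted p 1.1e-04, edgeR). Pdgfc at 0.56 and Pdgfa at 0.55 were also called, and the call was lost for Pdgfa without PQ 1 (0.42) and for Pdgfc without control 2 (0.36), PQ 1 (0.55) or PQ 2 (0.56). With the TRIZOL libraries alone, 1 PQ library against 1 control library, the log2 value of Pdgfa was 0.37. NAC against control had 2 ligands called higher and 2 lower. Hbegf was lower (log2 -0.86, adjusted p 4.2e-06, edgeR). Fgf1 was higher (log2 0.95, adjusted p 1.8e-05, edgeR), as was Tgfa (log2 0.99, adjusted p 0.0014, edgeR), whose log2 value was 0.65 without control 1.

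Receptors were tested for 7 of 12 listed, among them Egfr, which binds EGF, and Fgfr1 and Fgfr3, which bind bFGF. The FPKM of Egfr was 30.0 in control 1 and 27.4 in control 2, 26.2 in PQ 1 and 23.8 in PQ 2, and 35.4 in NAC 1 and 33.9 in NAC 2. Like Dusp6, Egfr was highest in NAC and lowest in PQ with no overlap of groups, but neither difference of Egfr from control was called (log2 -0.23 in PQ, adjusted p 0.11, and 0.24 in NAC, adjusted p 0.092, edgeR). It was called lower in PQ against NAC (log2 -0.47, adjusted p 0.0010, edgeR). Fgfr1 had 63.0 and 71.2 FPKM in control, 60.1 and 58.5 in PQ, and 66.9 and 76.5 in NAC, and its log2 difference of -0.25 in PQ against NAC was at the threshold (adjusted p 0.04999, edgeR) and called under 6 of 15 alternatives. Among the alternatives that lost the Fgfr1 call were those without PQ 1 (-0.26), PQ 2 (-0.25) or NAC 2 (-0.16), and the labelled protocol as a term (-0.22). In PQ against control, edgeR called 0 receptors higher, as did DESeq2 and limma, with 0 higher at an unadjusted p under 0.05. It called 2 lower, Fgfr3 (log2 -1.01, adjusted p 1.1e-05, edgeR) and Met (-0.37). The Met call in PQ was made under 8 of 15 alternatives. It was lost, among others, without control 2 (-0.28), PQ 1 (-0.32) or PQ 2 (-0.41), by DESeq2 (-0.37) and by limma on log2(FPKM + 1) (-0.30). NAC against control had Pdgfra called higher (0.40) and Met lower (log2 -1.17, adjusted p 5.7e-07, edgeR). The Pdgfra call was made under 11 of 15 alternatives. It was lost, among others, without control 1 (0.33) or NAC 2 (0.29) and with the labelled protocol as a term (0.37).

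Among adaptors and the RAS cycle, 14 of 15 genes were tested. Of these, edgeR called 1 higher and 0 lower in PQ, and 1 higher and 1 lower in NAC. In PQ, 1 of them was lower at an unadjusted p under 0.05, and DESeq2 and limma called 0 lower. The shares called higher in PQ, and higher or lower in NAC, were near those of all genes. The called genes were Rasa2 in PQ (log2 0.44, lost without PQ 2, 0.29), and in NAC Gab1 (log2 0.77, adjusted p 2.4e-05, edgeR) and Shc1 (-0.40). The Shc1 call was made under 11 of 15 alternatives. It was lost, among others, without control 2 (-0.23) or NAC 1 (-0.33) and by limma on log2(FPKM + 1) (also -0.33). All 13 kinases and scaffolds listed were tested. Of these, edgeR called 1 higher and 0 lower in PQ, and 1 higher and 2 lower in NAC. In PQ, 2 of them were lower at an unadjusted p under 0.05, and DESeq2 and limma called 0 lower. The shares called higher in PQ and in NAC were near those of all genes. Rps6ka5 was called higher in PQ (log2 0.49, lost without PQ 1, also 0.49). In NAC it was also called higher (log2 0.39), under 7 of 15 alternatives. The NAC call was lost without control 1 (0.43), control 2 (0.35), PQ 1 (0.39), NAC 1 (0.33) or NAC 2 (0.45). It was also lost by DESeq2 (0.39) and with the labelled protocol as a term (0.41). With the TRIZOL libraries alone, which hold 1 control library, Rps6ka5 was at 0.53 in PQ and 0.43 in NAC. Rps6ka2 was lower in NAC (log2 -0.88, adjusted p 6.3e-04, edgeR), and so was Map2k1, which encodes a MEK kinase (-0.33). The Map2k1 call was made under 10 of 15 alternatives. It was lost, among others, without control 2 (-0.28), NAC 1 (-0.34) or NAC 2 (-0.32) and by limma on log2(FPKM + 1) (-0.28).

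Other negative regulators were tested for 12 of 16 listed. In PQ, 3 were called higher and 1 lower, beside 9.76% and 9.45% of all genes. In NAC, 1 was called higher and 2 lower, beside 9.01% and 9.64%. Errfi1, an inhibitor of the EGF receptor, was higher in PQ (log2 0.51, adjusted p 0.0020, edgeR) and in NAC (0.41, lost without control 2, 0.34, or NAC 1, 0.37). Spred3, a relative of Spred1 and Spred2, was higher in PQ (0.38, lost without control 1, 0.32, or PQ 1, 0.31), as was Lrig1 (0.38, lost without PQ 1, 0.26). With the TRIZOL libraries alone, 1 PQ library against 1 control library, their log2 values were 0.25 and 0.23. Rasal2 was lower in both (log2 -0.53 in PQ, adjusted p 8.5e-04, and -0.49 in NAC, adjusted p 0.0014, edgeR). Dusp14 was lower in NAC (log2 -1.80, adjusted p 1.1e-04, edgeR, with -2.16 to -1.35 when 1 library was left out). Its control libraries lay apart, at 9.66 and 5.58 FPKM. The direction was opposite to that of Dusp5 and Dusp6 and the same as that of Dusp4, whose log2 value of -0.25 was not called.

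The list named ERK output genes holds genes transcribed in response to ERK and also the transcription factors Elk1, Elk3 and Srf, none of them among the 10. Of 15 listed, 14 were tested. In PQ against control, 6 were called higher and 1 lower, beside 9.76% and 9.45% of all genes. In NAC 5 were called higher and 3 lower, beside 9.01% and 9.64%. Egr1 had 31.6 and 29.7 FPKM in control, 21.1 and 20.5 in PQ, and 44.0 and 48.6 in NAC, lowest in PQ and highest in NAC like Dusp6 (in PQ against control, log2 -0.59, adjusted p 4.4e-04, edgeR). Fosl1 had 23.6 and 27.1 in control, 48.4 and 48.6 in PQ, and 18.0 and 20.1 in NAC, highest in PQ and lowest in NAC like Dusp4 (in PQ against control, log2 0.91, adjusted p 1.3e-05, edgeR). Epha2 had the same order, with log2 0.53 in PQ (adjusted p 0.0015, edgeR) and -0.61 in NAC (adjusted p 5.4e-04, edgeR). Fos was higher in both treatments (log2 0.76 in PQ, adjusted p 0.0067, and 1.28 in NAC, adjusted p 3.8e-05, edgeR). With the TRIZOL libraries alone, 1 PQ library against 1 control library, the log2 values in PQ were 0.44 for Epha2 and 0.66 for Fos. In NAC, Myc (0.71) and Junb (0.70) were also called higher.

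**Figure D4:**
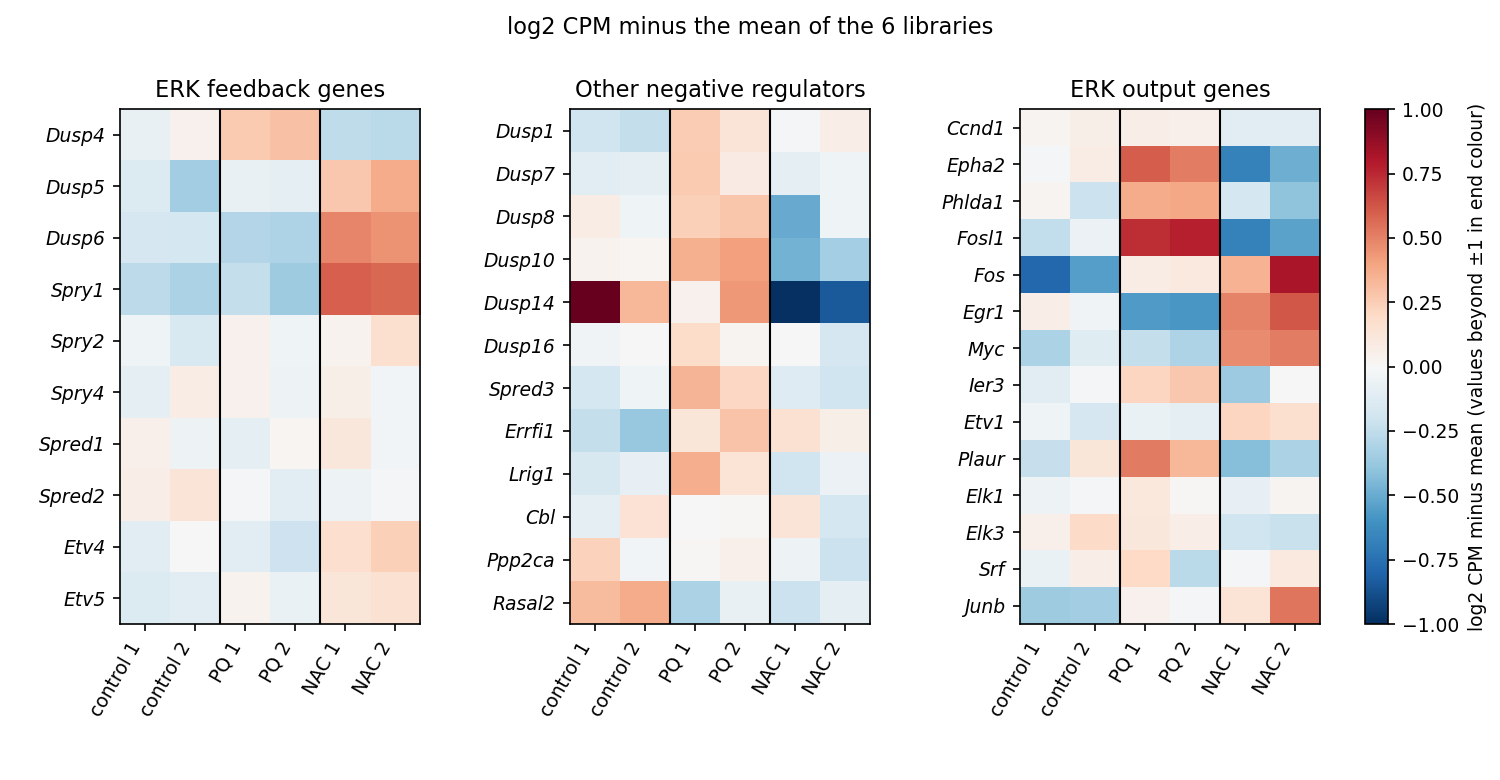
Log2 CPM of the 10 genes, the other negative regulators tested and the ERK output genes tested in each of the 6 libraries, minus each gene's mean over the 6 (colour, log2 units, with values beyond the scale in the end colours). Dusp6 and Spry1 are above their means in both NAC libraries and below them in the other 4.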

How the data were processed

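For each of the 6 libraries the authors deposited 1 table. It lists for every gene the expected count, which need not be whole, together with its FPKM as deposited. A gene missing from a table was taken as 0. The submitters' processing notes name TopHat2 2.0.11, Cufflinks 2.1.1, bcl2fastq 2.17 and cutadapt for control 1 and PQ 1, and HISAT2 2.0.4, Bowtie2 2.2.5 and RSEM for the other 4, although the columns are of the RSEM type in all 6. The study's methods name a stranded library kit, and whether strand was used in counting is not stated. Symbols from the NCBI gene table were found for 17199 of 17254 genes (99.7%).

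Expected counts were rounded and tested with edgeR 4.0.16 in R 4.3.3 (TMM normalization, quasi-likelihood test, all 6 libraries, no covariates) after genes under a mean FPKM of 1 were dropped. Adjustment was by Benjamini-Hochberg over 11717 genes, with a threshold of 0.05. Intervals are 95% intervals. The scripts were tested on simulated data. Alternatives were DESeq2 size factors, DESeq2 1.42.0, limma 3.58.1 on log2(FPKM + 1) and log2(FPKM + 0.1), no filter on low values, filterByExpr, the labelled protocol as a term, only the 4 libraries compared, and leaving out each library. A fit on the 4 libraries labelled TRIZOL and BGISEQ was chosen after seeing the data. The members and lists were chosen with earlier results of these data known. All 10 members are named; from each pathway list, at most the 4 genes with the largest absolute log2 fold change among those called are named per comparison, plus Egfr and Fgfr1. Values for single pathway genes are given for the comparisons with control, and for Egfr and Fgfr1 also for PQ against NAC. Other experiments of the study were not analysed here. Results of some listed genes are not reported here.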

Additional observations from a re-analysis of the deposited data

How the results depend on the processing

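Of 450 values of the 10 genes under 15 alternatives per value, 410 kept their direction and side of the threshold, 20 lost a call, 2 gained one and 18 changed sign, all 18 for values that were not called. The calls of Dusp6 and Spry1 in NAC against control and in PQ against NAC, and of Dusp4 in PQ against NAC, were made under all 15. In NAC against control the log2 value ran from 0.62 to 0.69 for Dusp6 and from 0.84 to 0.92 for Spry1.

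The number of genes called in PQ against control was 2250, with 866 to 2206 when 1 library was left out and 993 with the TRIZOL and BGISEQ libraries alone. That fit was chosen after seeing the data, holds 1 control and 1 PQ library and takes its spread, with 1 residual degree of freedom, from the 2 NAC libraries, so a call not made there says nothing about stability. In NAC against control it was 2186, with 1286 to 2126 when 1 library was left out, and in PQ against NAC 3708, with 2343 to 4207. Leaving out a library leaves fewer samples to estimate the spread, and the lone library of a group is assumed to vary like the others. The number of the 10 genes called higher in PQ was 1, with 0 to 1 when 1 library was left out, 0 with the labelled protocol as a term and 0 with the TRIZOL and BGISEQ libraries. The number called higher in NAC was 4, with 2 to 3 when 1 library was left out. The cause was not tested.

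Signs changed for values near 0. In PQ against control, Spry1 was 0.02 with limma at either pseudocount and -0.07 to 0.05 when 1 library was left out. Spry4 was -0.08 to 0.10 and -0.12 with the TRIZOL and BGISEQ libraries, and Spred1 was -0.09 to 0.02 and 0.07. In NAC against control, Spry4 was -0.05 to 0.12 and -0.05, Spred1 was -0.03 to 0.11, and Fgfr1 was -0.04 to 0.14 and -0.03. In PQ against NAC, leaving out 1 library gave -0.07 to 0.02 for Spry4 and for Spred2. The cause was not tested.

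Of 600 values of named pathway genes, 543 kept their direction and side of the threshold, 54 lost a call and 3 changed sign. The labels carry no replicate numbers, so no pairs were taken from them; the labelled protocol term, which pairs control 1 with PQ 1, gave Dusp4 in PQ a log2 value of 0.29, not called. The deviations of control 1 and PQ 1 from their group means had r -0.0791 across genes, which are not independent replicates.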
